A study of Mus musculus with 6 samples.

Results

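The genes described here are 37 genes of the cell cycle, measured by RNA sequencing in 6 mouse hearts. They were taken by symbol from a list of genes for DNA replication, mitosis, cyclins and cyclin inhibitors, and all 37 stood in the deposited table of 46095 genes. By role they are 10 replication genes, 18 mitosis genes, 6 genes of the G1 phase (cyclins D and E and the kinase Cdk4) and 3 inhibitors. The hearts were 3 of STAT3cKO mice, in which the labels state a deletion of STAT3 specific to cardiomyocytes (numbered 3, 6 and 91 in the titles), and 3 of wild-type mice, titled NC (numbered 1, 3 and 4). Values per heart are given below in that order of numbers. The labels give neither the Cre line that made the deletion nor age, sex, treatment or litter, and do not say that each library came from a separate animal. Should some share an animal, a p-value here covers the spread between libraries alone, part of which may be technical.

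A cell divides by passing through G1, in which D and E cyclins activate kinases that release E2F transcription factors from the retinoblastoma protein, then through S phase, in which DNA is copied, and then through mitosis. E2F factors drive the replication genes. The mitosis genes are transcribed later, through a promoter element called the cell cycle genes homology region (CHR), which is bound by the DREAM and MuvB complexes with B-Myb and FoxM1, often beside CCAAT boxes bound by NF-Y. In the adult heart most cardiomyocytes have left the cycle, and dividing cells are mainly endothelial, stromal and immune cells. STAT3 carries signals of IL-6 family cytokines to the nucleus, and Ccnd1, Myc and Cdkn1a are among the genes it is known to bind in other cells.

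Total counts per heart ran from 15416877 to 18264052. Stat3, the deleted gene, stood at 99.7, 85.8 and 97.5 CPM (read counts scaled to library size by TMM) in the wild-type hearts and at 52.9, 63.7 and 59.6 CPM in the STAT3cKO hearts, and fell by 0.68 on the log2 scale (edgeR adjusted p = 0.000677). Heart libraries hold many cell types, and the defining markers of cardiomyocytes (Myh6, Tnnt2, Actn2, Ttn, Ryr2) were abundant in each heart, summing to 26600 to 29800 CPM with wild-type and 25400 to 31200 CPM with STAT3cKO genotype. Transcript length moved with genotype across all genes. The slope of log2 CPM per doubling of length, relative to the mean of all hearts, was 0.0474 to 0.154 in the wild-type hearts and -0.116 to -0.0849 in the STAT3cKO hearts, so long transcripts were lower and short ones higher in STAT3cKO. For that reason calls and counts of calls are also given with a per-heart trend of length and GC content as an offset, called the length offset, and values of genes that did not pass are without it unless stated. The length trend and the genotype cannot be told apart in these libraries, since the trend separates the groups.

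The promoter letters of the members differed by role, which is why they are shown first. Of the 37 members, 28 had a promoter window in the RefSeq table (GRCm38.p6, 250 bases before to 50 after the start), with 31 windows in all. No window was listed for Mcm4, Ccna2, Aurkb, Tpx2, Kif20a, Ccnd1, Ccnd2, Ccne2 and Cdkn1c. Letters were searched on both strands: TTTGAA or TTCGAA for CHR, CCAAT for the CCAAT box, TTTNNCGC for E2F and TTCNNNGAA for a STAT site. In the member windows, 1 pair of matches to different motifs overlapped. CHR letters were in 12 of 14 mitosis windows (85.7%) and 2 of 10 replication windows (20.0%), against 19.2% of 32851 promoter windows in the table. CCAAT was in 14 of 14 mitosis and 9 of 10 replication windows, against 37.4% of all windows. E2F letters were in 5 of 10 replication windows and 1 of 14 mitosis windows (Cdk1), against 5.17% of all. STAT letters were in 1 of 31 member windows, that of Mcm5, against 8.3% of all. The STAT count leaves out Ccnd1, named above among genes that STAT3 binds in other cells, since it had no window. Sites further than 250 bases before the start were not searched. These counts describe letters and show no binding.

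The 200 bases before the start are printed for the 5 mitosis genes that fell and for Mcm7, a replication gene that rose, so that the elements can be compared. They run 5′ to 3′ on the gene's strand, and capitals mark CHR, CCAAT and E2F letters on either strand. Mki67 is at chr7:135716380-135716579 on the minus strand, Top2a at chr11:99024190-99024389 (minus), Cdc20 at chr4:118437344-118437543 (minus), Kif11 at chr19:37376182-37376381 (plus), Cenpe at chr3:135212363-135212562 (plus) and Mcm7 at chr5:138171884-138172083 (minus), all of GRCm38.p6. The start is that of the promoter table, which for Mki67, Top2a and Mcm7 lies inside the outermost gene boundary.
Mki67: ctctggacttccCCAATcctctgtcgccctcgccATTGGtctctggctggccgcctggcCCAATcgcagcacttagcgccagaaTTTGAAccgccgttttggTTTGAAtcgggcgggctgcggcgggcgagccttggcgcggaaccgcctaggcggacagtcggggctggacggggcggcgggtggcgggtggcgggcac
Top2a: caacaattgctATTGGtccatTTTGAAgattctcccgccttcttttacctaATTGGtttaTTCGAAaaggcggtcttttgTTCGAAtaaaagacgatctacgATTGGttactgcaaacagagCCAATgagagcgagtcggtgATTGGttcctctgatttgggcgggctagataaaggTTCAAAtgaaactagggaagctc
Cdc20: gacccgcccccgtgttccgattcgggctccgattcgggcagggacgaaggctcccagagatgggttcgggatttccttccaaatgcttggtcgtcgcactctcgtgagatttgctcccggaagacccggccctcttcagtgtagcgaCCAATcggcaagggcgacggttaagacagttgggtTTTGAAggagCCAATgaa
Kif11: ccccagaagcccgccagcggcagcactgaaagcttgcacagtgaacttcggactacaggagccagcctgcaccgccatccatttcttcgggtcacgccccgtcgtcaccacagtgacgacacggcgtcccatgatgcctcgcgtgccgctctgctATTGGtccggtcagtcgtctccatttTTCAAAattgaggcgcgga
Cenpe: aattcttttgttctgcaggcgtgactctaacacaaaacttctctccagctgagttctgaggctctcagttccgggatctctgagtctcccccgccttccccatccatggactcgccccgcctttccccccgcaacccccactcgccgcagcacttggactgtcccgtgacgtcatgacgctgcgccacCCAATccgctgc
Mcm7: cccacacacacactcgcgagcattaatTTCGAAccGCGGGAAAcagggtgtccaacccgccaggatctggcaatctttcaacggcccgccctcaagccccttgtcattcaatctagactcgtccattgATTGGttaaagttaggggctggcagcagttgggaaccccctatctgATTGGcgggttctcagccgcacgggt
Mki67 holds 2 CHR and 3 CCAAT matches, Top2a 4 and 5, and Cdc20 1 and 2. Kif11 holds 1 of each. Cenpe holds 1 CCAAT match and no CHR letters in these bases, and Mcm7 holds 1 CHR, 1 E2F and 2 CCAAT matches. Mcm7 has 2 windows in the promoter table, and the one with more matches is printed. Pcna, the other replication gene that rose, is not printed. Its 200 bases hold 1 CCAAT match and 0 CHR or E2F matches.

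Of the 37 members, 36 had enough counts to be tested, and each of these reached the level of 0.575 CPM set by the low-count filter in at least 1 heart of each group. The member not tested was Bub1, a checkpoint kinase of the spindle, with 35, 9 and 9 counts in the wild-type hearts, then 8, 7 and 11 in the STAT3cKO hearts. Of the 36, 3 rose and 7 fell in STAT3cKO hearts (edgeR quasi-likelihood test, adjusted p under 0.05), which is 27.8% of them, against 25.8% of all 14484 genes tested. As a whole, then, the members were called about as often as other genes. Their median log2 fold change was -0.15, against -0.002 for all genes. The roles differed in direction. In the mitosis genes 5 of 17 fell and 0 rose (29.4% lower, against 12.6% of all genes), in the replication genes 2 of 10 rose and 0 fell (against 13.2% higher of all genes), in G1 2 of 6 fell, and 1 of 3 inhibitors rose. With the length offset 3 members rose and 4 fell, against 18.6% of all genes changed (10.8% higher, 7.74% lower), and 6 members passed both ways. By role, 2 of 17 mitosis genes were then lower (11.8%) and 1 of 10 replication genes was higher (10%, near the share of all genes). Separate ranges in the 2 genotypes were seen for 13 of the 36 (36.1%), against 43% of all genes. The difference between the roles was not tested.

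**Figure D1:**
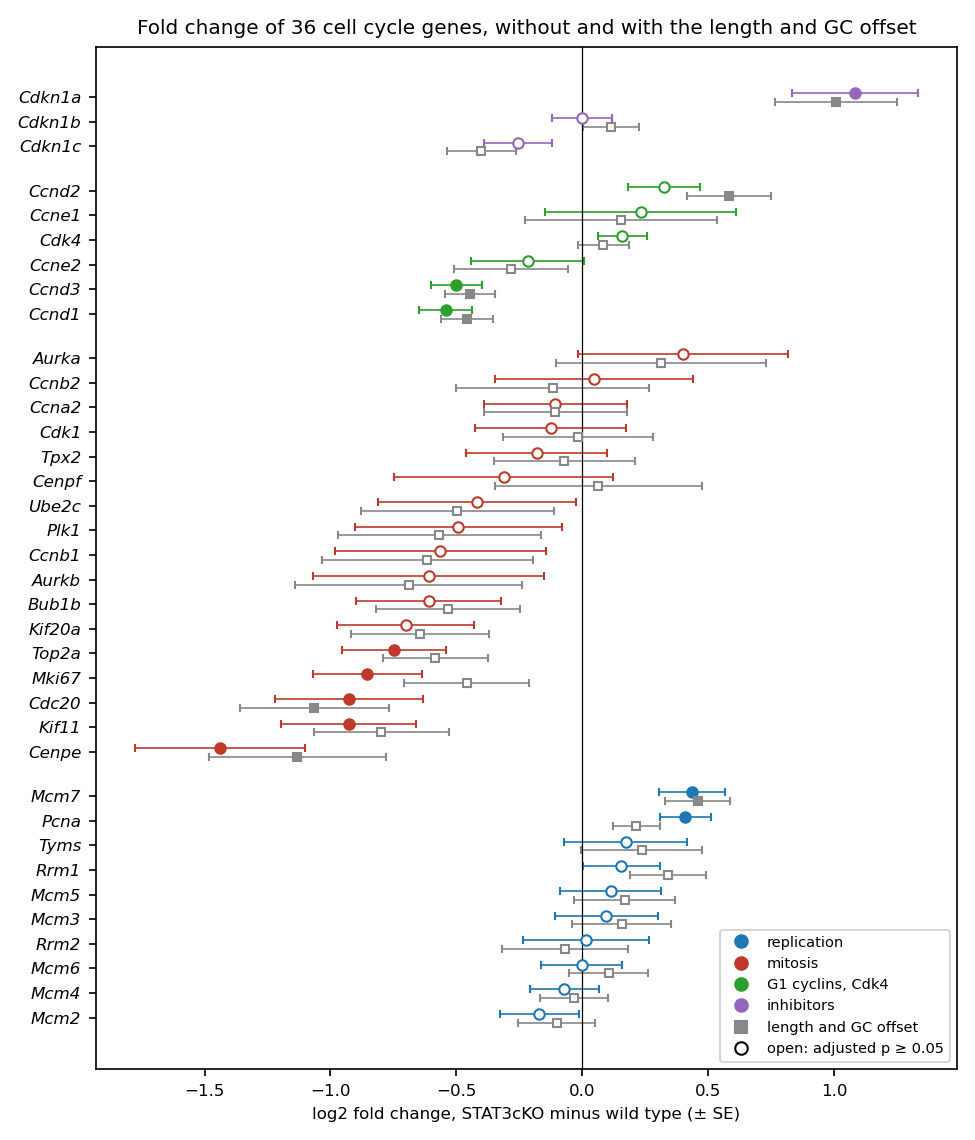
Log2 fold change (STAT3cKO minus wild type, ± SE, n = 3 hearts a group) of the 36 members tested, by role. Circles are values without and grey squares values with the length and GC offset, and filled marks have an edgeR adjusted p under 0.05. Mitosis genes lie mostly left of 0 and replication genes around it, and Mki67, Top2a, Kif11 and Pcna are filled only without the offset.

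Of the 17 mitosis genes tested, 5 fell in STAT3cKO hearts and 0 rose (0 also at an unadjusted p under 0.05, with DESeq2 and with limma-voom). The median log2 fold change was -0.56 (-0.54 with the length offset). With and without the offset 15 of the 17 values were below 0 (88.2%). Of all genes 50.1% were below 0 without the offset, and 6884 of 14484 with it. The genes that fell were Cenpe, Kif11, Cdc20, Mki67 and Top2a. With the offset 2 fell, Cenpe and Cdc20 (11.8%, against 7.74% of all genes). A lower level in whole heart RNA can come from fewer dividing cells or from less of the transcript per cell, which cannot be told apart in these libraries.

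Mki67, the Ki-67 protein that coats mitotic chromosomes and marks cycling cells, stood at 12.3, 11 and 9.60 CPM in the wild-type hearts, against 6.69, 3.90 and 7.56 CPM in the STAT3cKO hearts. Each STAT3cKO heart was below each wild-type heart, with heart 6 the lowest. It fell by 0.85 ± 0.22 (SE) on the log2 scale (edgeR adjusted p = 0.0136). Its longest transcript is 10061 nt, in the longest of 10 equal classes of genes by length, of which 39.1% were lower with a median log2 fold change of -0.31. With the offset its value was -0.46 ± 0.25 (adjusted p = 0.229). The call also failed without wild-type heart 1 (adjusted p = 0.0566).

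Top2a, the DNA topoisomerase that untangles sister chromatids, stood at 8.24, 7.34 and 5.54 CPM in the wild-type hearts, against 3.75, 3.96 and 4.82 CPM in the STAT3cKO hearts. The groups did not overlap. It fell by 0.75 ± 0.21 (edgeR adjusted p = 0.019), and its value was -0.58 with the length offset (adjusted p = 0.0684). The call failed without wild-type heart 1 (adjusted p = 0.0822), wild-type heart 3 (0.0561) or STAT3cKO heart 3 (0.0672).

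Cdc20 activates the anaphase-promoting complex, which ends metaphase by degrading cyclin B and securin. It had 40, 36 and 38 counts in the wild-type hearts, then 16, 19 and 18 in the STAT3cKO hearts, or 2.06, 2.15 and 2.08 CPM against 1.09, 1.23 and 0.985 CPM. The groups were far apart relative to their spread, at 2.1 ± 0.0455 and 1.1 ± 0.124 CPM (SD, n = 3 each). Cdc20 fell by 0.93 ± 0.29 on the log2 scale (edgeR adjusted p = 0.0353). Its transcript is short, 1793 nt, and of genes in its length class 3.31% were lower and 20.9% higher. With the offset it was at -1.06 ± 0.30 (adjusted p = 0.0252). At counts this low the call was not firm. It passed without STAT3cKO heart 6 (adjusted p = 0.0444) but not without wild-type heart 1 (0.0774), 3 (0.0913) or 4 (0.0846) or STAT3cKO heart 3 (0.0879) or 91 (0.112), nor with DESeq2 (0.085) or without the low-count filter (0.0545). The end of Cdc20 shares 53 exon bases with Elovl1 on the other strand, whose log2 fold change was -0.01 (adjusted p = 0.946).

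Cenpe and Kif11 are kinesin motors, the first at the kinetochore and the second between the spindle poles. Cenpe had 53, 37 and 33 counts in the wild-type hearts, then 14, 9 and 17 in the STAT3cKO hearts, or 2.73, 2.21 and 1.81 CPM against 0.955, 0.584 and 0.931 CPM. It had the lowest fold change of the members, -1.44 ± 0.34 (edgeR adjusted p = 0.00868), or -1.13 ± 0.35 with the offset (adjusted p = 0.04), and passed in each of the 6 fits that left out 1 heart. Its transcript of 7910 nt is in the longest class. Cenpe reached the level of the low-count filter in 3 wild-type hearts and 2 STAT3cKO hearts. Kif11 stood at 2.93, 2.80 and 2.74 CPM in the wild-type hearts, against 1.5, 1.23 and 1.70 CPM in the STAT3cKO hearts, again without overlap. Its log2 fold change was -0.93 ± 0.27 (edgeR adjusted p = 0.0233) and -0.80 with the offset (adjusted p = 0.055). Kif11 passed when STAT3cKO heart 91 was left out (adjusted p = 0.0366). It missed the threshold without wild-type heart 1 (0.0664), 3 (0.059) or 4 (0.0565) or STAT3cKO heart 3 (0.0592) or 6 (0.0552).

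**Figure D2:**
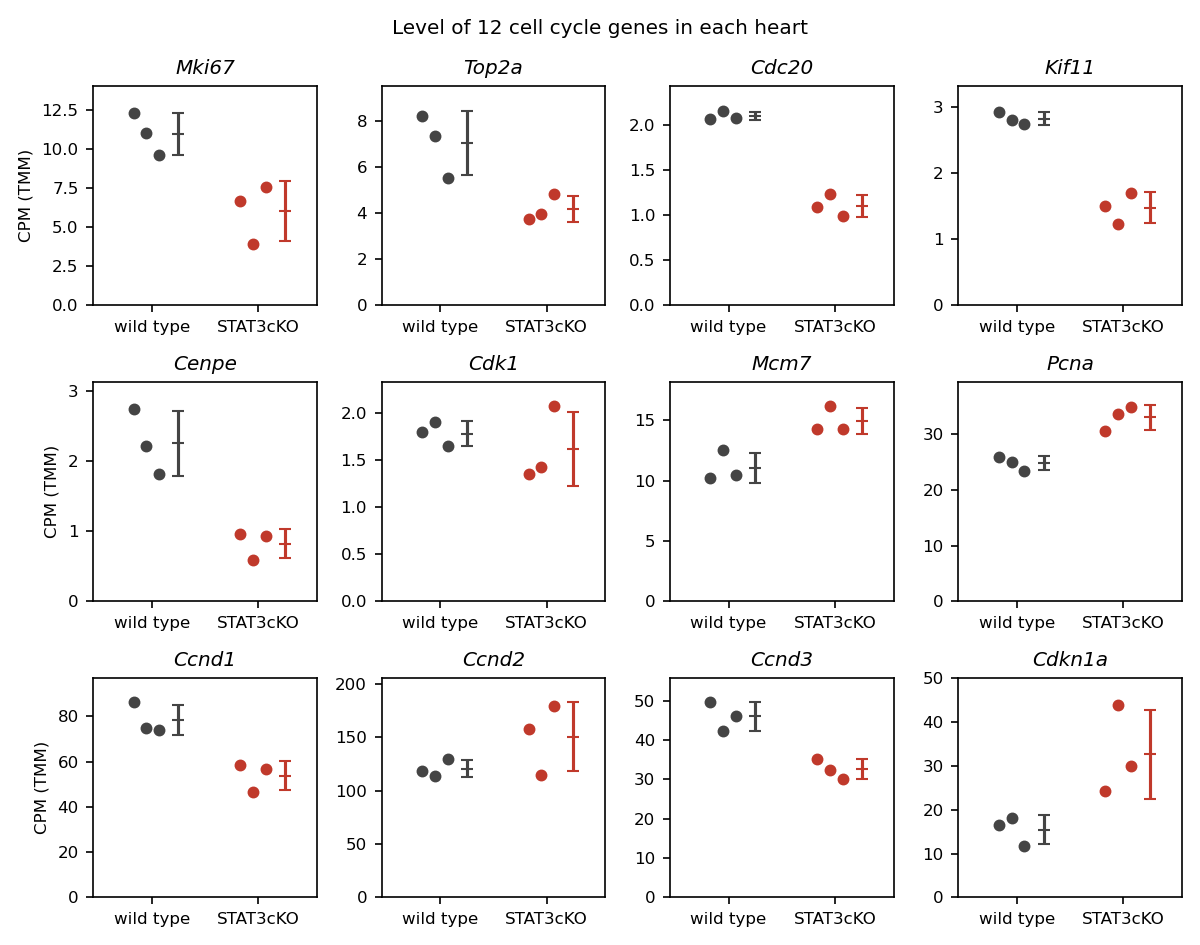
CPM (TMM-normalised, linear axis from 0) of 12 members in each heart, wild type in grey (hearts 1, 3 and 4, left to right) and STAT3cKO in red (hearts 3, 6 and 91), with the mean ± SD beside the points. The 12 are the 10 members called without the length offset, with Cdk1 and Ccnd2 added. Ranges are separate for 10 of the 12, largely because of that choice, and overlap for Cdk1 and Ccnd2. Among all 36 members tested the share with separate ranges was 36.1%, against 43% of all genes.

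The other 12 mitosis genes tested did not pass. Kif20a, a kinesin of cytokinesis, and Bub1b, the spindle checkpoint kinase BubR1, had values of -0.70 ± 0.27 (edgeR adjusted p = 0.0761) and -0.61 ± 0.29 (adjusted p = 0.137), and neither overlapped between the groups. Kif20a stood at 2.78, 2.27 and 2.36 CPM in the wild-type hearts, against 1.64, 1.56 and 1.37 CPM in the STAT3cKO hearts, and it shares 1271 exon bases with Cdc23 on the other strand. Ccnb1, the B cyclin that activates Cdk1, was at 0.978, 0.835 and 0.658 CPM in the wild-type hearts, against 0.478, 0.519 and 0.657 CPM in the STAT3cKO hearts, and has 4 near-identical copies in the annotation. The mitotic kinases Plk1 (-0.49) and Aurkb (-0.61), the ubiquitin-conjugating enzyme Ube2c (-0.42) and the spindle factor Tpx2 (-0.18, and -0.07 with the offset) had values below 0, each with groups that overlapped. Cdk1, the kinase that starts mitosis, stood at 1.80, 1.91 and 1.65 CPM in the wild-type hearts, against 1.36, 1.43 and 2.08 CPM in the STAT3cKO hearts. STAT3cKO heart 91 was the highest of the 6 hearts, so the groups overlapped (log2 fold change -0.12 ± 0.30, edgeR adjusted p = 0.787, and -0.015 with the offset). Ccna2, the cyclin of S phase and G2 (-0.11, with 510 exon bases shared with Exosc9, which rose by 0.57), and Ccnb2 (0.05) were close to 0, and the spindle kinase Aurka was at 0.40 ± 0.42 (adjusted p = 0.509).

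Cenpf, a kinetochore protein, varied widely within a group. It was at 22.6, 15 and 18.7 CPM across the wild-type hearts, then 7.30, 23.2 and 14.7 CPM across the STAT3cKO hearts. STAT3cKO heart 3 was the lowest heart and heart 6 the highest, and no difference was detectable (log2 fold change -0.31 ± 0.43, edgeR adjusted p = 0.642). Within the wild-type group the mitosis genes were not evenly spread either. Of the 18, 13 were highest in heart 1, 5 in heart 3 and 0 in heart 4, against 4, 3 and 3 of the 10 replication genes. Without wild-type heart 1, 1 mitosis gene fell, Cenpe (9.1% of all genes were lower in that fit). The count was 2 without wild-type heart 3 (8.8% of all genes), 3 without wild-type heart 4 (8.09%) and 2 without STAT3cKO heart 3 (8.51%). It was 4 without STAT3cKO heart 6 (13.5%) and 4 without STAT3cKO heart 91 (9.69%).

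Of the 10 replication genes, 2 rose, 8 did not pass and 0 fell by the edgeR test (0 also at an unadjusted p under 0.05, with DESeq2 and with limma-voom), with a median log2 fold change of 0.10 (0.16 with the length offset). The summed level of the 18 mitosis genes was 0.73, 0.579 and 0.59 of that of the 10 replication genes in the wild-type hearts, but 0.344, 0.442 and 0.377 of it in those with the deletion. The ratio was lower in each STAT3cKO heart than in each wild-type heart. Cenpf and Mki67, both long transcripts, are the largest parts of the mitosis sum. Without them the ratio was 0.329 ± 0.0447 in wild type, against 0.198 ± 0.00897 in STAT3cKO, and over the members tested with the length and GC trend divided out it was 0.580 ± 0.0865 against 0.412 ± 0.0470 (SD, n = 3 each), again without overlap. The same ratio over the further mitosis and replication genes described below did not separate the groups, at 0.640 ± 0.0288 against 0.630 ± 0.0431. In that ratio Pttg1 and Cenpa, which rose, were not left out. They averaged 54.8 and 23.1 CPM of a mitosis sum of 220 CPM in wild type, and 87.7 and 32.9 of 245 CPM in STAT3cKO. All these further ratios were chosen after seeing the data.

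Pcna, the sliding clamp that holds DNA polymerase on its template, stood at 26, 25.1 and 23.5 CPM in the wild-type hearts, against 30.6, 33.6 and 34.9 CPM in the STAT3cKO hearts. Each STAT3cKO heart was above each wild-type heart. Pcna rose by 0.41 ± 0.10 on the log2 scale (edgeR adjusted p = 0.0109). It is a short transcript of 1518 nt, and genes in its length class had a median log2 fold change of 0.19 with 20.9% higher. With the offset its value was 0.21 (adjusted p = 0.129), with library size alone 0.30 (0.0775), and the call also failed without wild-type heart 4 (0.0506).

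Mcm7 is a subunit of the MCM2-7 helicase, the ring that opens DNA at replication forks. It stood at 10.2, 12.5 and 10.5 CPM in the wild-type hearts, against 14.3, 16.2 and 14.3 CPM in the STAT3cKO hearts, with no overlap. It rose by 0.44 ± 0.13 (edgeR adjusted p = 0.028), and by 0.46 with the length offset (adjusted p = 0.026). With library size alone it was at 0.32 (adjusted p = 0.103). The call failed without wild-type heart 1 (0.0996) or 4 (0.0943) or STAT3cKO heart 3 (0.056) or 6 (0.0659). Exons of Mcm7 overlap Ap4m1, Cops6 and the microRNAs Mir25 and Mir93, and the strand setting of the counts is not given, so its reads are uncertain. Ap4m1 and Cops6 had values of 0.33 (adjusted p = 0.0949) and 0.25 (adjusted p = 0.0754).

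The other 5 subunits of the same ring did not pass. Their log2 fold changes were -0.17 for Mcm2, 0.10 for Mcm3, -0.07 for Mcm4, 0.11 for Mcm5 and -0.002 for Mcm6, with SE of 0.136 to 0.205 and edgeR adjusted p-values of 0.457 to 0.993. Mcm6 was at 10.5, 12 and 12.1 CPM in the wild-type hearts, against 10.8, 9.41 and 14.2 CPM in the STAT3cKO hearts, where heart 6 was the lowest and heart 91 the highest of the 6 hearts. Per length, Mcm7 was at 3.73 CPM per kb in wild type and the other subunits were between 1.42 (Mcm5) and 2.74 (Mcm4). The enzymes that supply deoxynucleotides were at 0.15 ± 0.15 (Rrm1) and 0.01 ± 0.25 (Rrm2) for the subunits of ribonucleotide reductase and 0.17 ± 0.24 for thymidylate synthase (Tyms). Rrm1 varied in STAT3cKO, at 14.5, 17.2 and 22.8 CPM, against 17.5, 15.5 and 16.1 CPM in wild type, and with the offset its log2 fold change was 0.34 (edgeR adjusted p = 0.136). Of the 10 replication genes, 7 were highest in heart 91 among the STAT3cKO hearts.

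**Figure D3:**
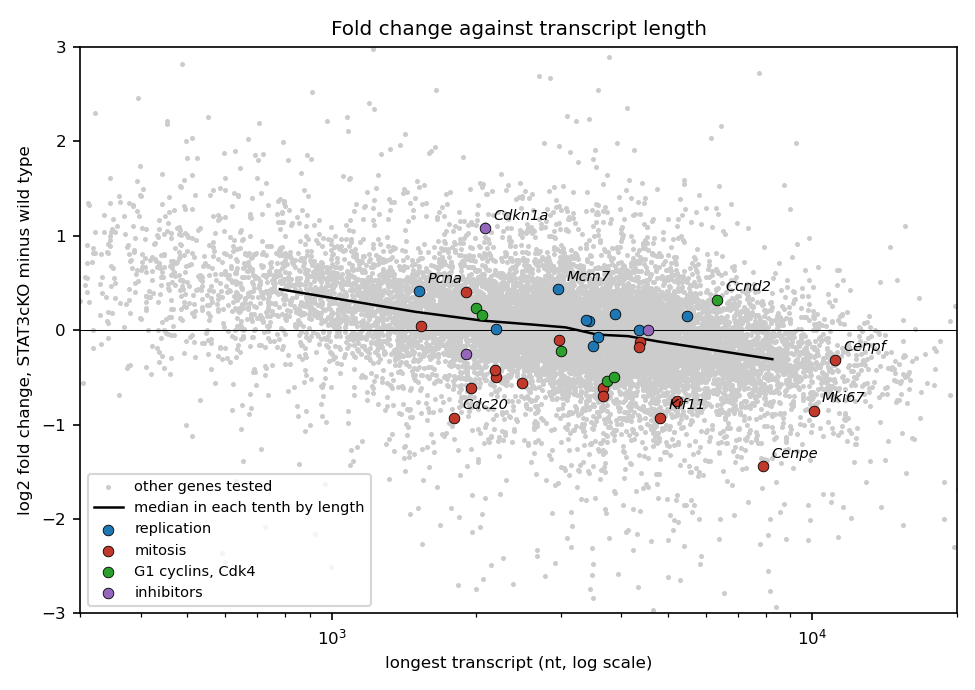
Log2 fold change (STAT3cKO minus wild type) against the longest annotated transcript (log axis) for all genes tested with a length (grey, with 107 genes outside the axes) and for the members (coloured by role). The black line joins the medians of 10 classes of genes by length, from 0.43 in the shortest to -0.31 in the longest. Cenpe and Cdc20 lie furthest below it among the members and Cdkn1a furthest above.

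Of the D cyclins Ccnd1 and Ccnd3 fell, and Ccnd2 did not pass without the offset. They are the G1 cyclins that partner Cdk4 and Cdk6, and Ccnd1 is the one most tied to mitogen signals. They lie at chr7:144929931-144939831 (Ccnd1), chr6:127125162-127152188 (Ccnd2) and chr17:47505051-47599689 (Ccnd3) of GRCm38.p6. Ccnd1 stood at 86.1, 75.0 and 73.9 CPM in the wild-type hearts, against 58.3, 46.5 and 56.6 CPM in the STAT3cKO hearts, with each STAT3cKO heart below each wild-type heart. It fell by 0.54 ± 0.11 on the log2 scale (edgeR adjusted p = 0.0033; 0.00898 with the length offset). Ccnd3 stood at 49.7, 42.4 and 46.2 CPM in the wild-type hearts, against 35.2, 32.5 and 30.2 CPM in the STAT3cKO hearts, and fell by 0.50 ± 0.10 (adjusted p = 0.00428; 0.00956 with the offset). Both passed in each of the 6 fits that left out 1 heart. Their exons overlap genes on the other strand, Ccnd1 that of Lto1 (listed as Oraov1; log2 fold change -0.13, adjusted p = 0.504) and Ccnd3 that of Bysl (-0.29, adjusted p = 0.135).

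Ccnd2, the third D cyclin, was at 118, 114 and 130 CPM in wild type, against 158, 115 and 179 CPM in the STAT3cKO hearts. Heart 6 lay among the wild-type hearts and the other STAT3cKO hearts above them. The log2 fold change was 0.33 ± 0.14 (edgeR adjusted p = 0.123), and 0.58 ± 0.17 with the length offset (adjusted p = 0.0435). Its transcript of 6330 nt is in a length class with a median of -0.19. Without STAT3cKO heart 6 it passed (adjusted p = 0.00407), as it did without the low-count filter (0.0197). Ccnd2 exons overlap antisense transcripts.

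Per length, the sum of the 3 D cyclins was 51.9 ± 2.76 CPM per kb in wild type and 46.6 ± 6.70 CPM per kb in STAT3cKO (SD, n = 3 each). The share of Ccnd1 in that sum was 42.3, 40.9 and 37.9% in wild type, against 31.4, 31.9 and 29.5% in STAT3cKO. The share of Ccnd2 was 34.1, 36.7 and 39.2% in wild type, against 50.3, 46.4 and 55.3% in STAT3cKO, and that of Ccnd3 was 23.6, 22.4 and 23.0% and 18.4, 21.6 and 15.2%. Ccnd1 was the largest part in wild-type hearts 1 and 3, Ccnd2 in wild-type heart 4 and in each STAT3cKO heart. For each of the 3 shares the groups did not overlap. The exact permutation p (two-sided) was 0.1 for each share, the smallest that 3 against 3 can give, and 0.1 after adjustment over the 3. The 3 shares are parts of the same sum and are not independent, so that of Ccnd2 also rises where Ccnd1 and Ccnd3 fall. In STAT3cKO heart 6 Ccnd2 was at 18.1 CPM per kb, against 19 on average in wild type, yet its share was 46.4%. These shares do not depend on the scaling of the libraries, but they do depend on the lengths used.

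**Figure D4:**
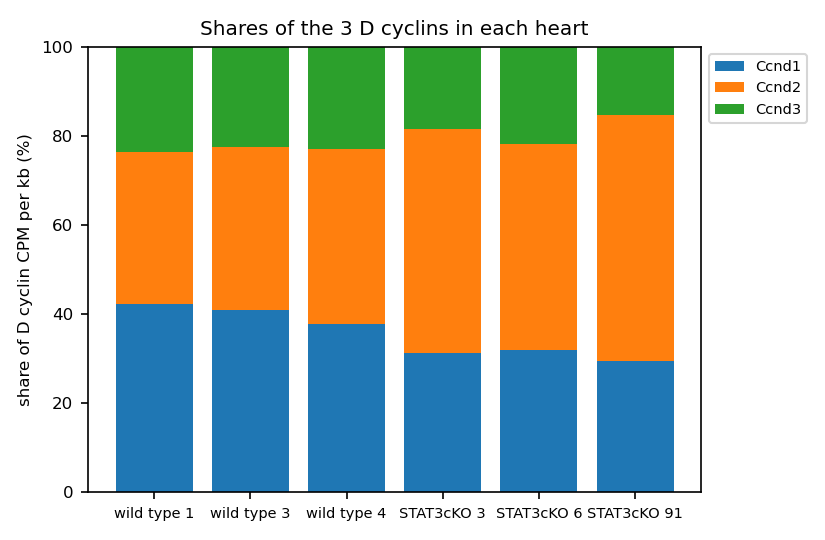
Share of each D cyclin in their summed CPM per kb of transcript in each heart. The Ccnd2 part is 34.1 to 39.2% in the wild-type hearts and 46.4 to 55.3% in the STAT3cKO hearts. The shares are parts of the same sum and depend on each other.

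The other G1 genes did not pass. Cdk4, the kinase that D cyclins activate, was at 36.7, 42.9 and 39.7 CPM in the wild-type hearts, against 46.0, 45.6 and 41.5 CPM in the STAT3cKO hearts (log2 fold change 0.16 ± 0.10, edgeR adjusted p = 0.249, and 0.08 with the offset), and it shares 641 exon bases with Tspan31. The E cyclins, which act with Cdk2 at the start of S phase, were low, with Ccne1 at 0.826 and Ccne2 at 3.57 CPM on average in wild type. Their log2 fold changes were 0.23 ± 0.38 and -0.22 ± 0.22.

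Of the inhibitors, Cdkn1a rose. It encodes p21, which blocks cyclin-dependent kinases and is induced by p53 and by stress signals, and lies at chr17:29090979-29100722. Cdkn1a stood at 16.5, 18.1 and 11.7 CPM in the wild-type hearts, against 24.2, 43.9 and 29.9 CPM in the STAT3cKO hearts. Each STAT3cKO heart was above each wild-type heart, and heart 6 was the highest. The log2 fold change was 1.08 ± 0.25 (edgeR adjusted p = 0.0182), a 2.12-fold increase, and 1.01 with the length offset (adjusted p = 0.0274). The call failed without wild-type heart 1 (adjusted p = 0.0531) or STAT3cKO heart 91 (0.0532). Cdkn1b, which encodes p27 and is known for holding adult cardiomyocytes out of the cycle, averaged 35.0 ± 4.72 CPM with and 35.0 ± 3.70 CPM without cardiomyocyte STAT3 (SD, n = 3 each). Cdkn1c, which encodes p57, was at 20.4 ± 3.17 and 17.1 ± 1.63 CPM (log2 fold change -0.25 ± 0.14, adjusted p = 0.185, and -0.40 with the offset, adjusted p = 0.0581).

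Genes that p53 is known to induce were listed beside Cdkn1a. Of 12 (Trp53 itself with 11 targets), 0 rose and 1 fell by the edgeR test, and likewise with DESeq2 and limma-voom, with a median log2 fold change of 0.04. At an unadjusted p under 0.05, 1 was higher and 1 lower, against 38.6% of all genes changed at that level. Phlda3 (0.56 ± 0.29, edgeR adjusted p = 0.194) was called higher without STAT3cKO heart 6 (0.00283) and without the low-count filter (0.00797). Btg2 (0.33 ± 0.13, edgeR adjusted p = 0.0783) was called higher without STAT3cKO heart 91 (0.0201). The gene that fell was Eda2r, a death receptor of the TNF family, at -0.77 ± 0.24 on the log2 scale (edgeR adjusted p = 0.0317; 0.0732 with the length offset), and it did not pass without wild-type heart 1 (0.0543) or 4 (0.169) or STAT3cKO heart 6 (0.076) or 91 (0.0806). Of 4 other inhibitors, the INK4 genes, 3 were tested and 0 were called by the edgeR test (0 at an unadjusted p under 0.05, 0 with the offset and 0 with DESeq2 or limma-voom). The smallest p among them was that of Cdkn2d, at 0.12 ± 0.13 (edgeR adjusted p = 0.502).

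Other genes of the same phases were listed to see how far the pattern of the members extends. Of 41 further mitosis genes 35 were tested, of which 4 fell and 2 rose. That is 17.1% changed and 11.4% lower, against 25.8% and 12.6% of all genes, so these genes were not called lower more often than others. Their median log2 fold change was -0.44 (-0.42 with the length offset), and 28 were below 0 (80%, against 50.1% of all genes). Aspm, a spindle pole protein, was at -2.01 ± 0.45 (log2, edgeR adjusted p = 0.00697). It had 51, 29 and 25 counts in the wild-type hearts, then 4, 5 and 14 in the STAT3cKO hearts. It reached the level of the low-count filter in 3 wild-type hearts but only 1 STAT3cKO heart. Aspm thus entered the test mainly through the group where it was high, and its passes carry that limit. Anln, a scaffold of the cleavage furrow, was at -1.02 and Smc2, a condensin subunit, at -0.64. Aspm and Anln also passed with the length offset and in each fit that left out 1 heart. Smc2 did not pass with the offset (adjusted p = 0.104) and passed in 1 of the 6 fits without a heart, that without STAT3cKO heart 91. The fourth call, Knl1 (listed as Casc5), the kinetochore scaffold that recruits Bub1, had 33, 19 and 21 counts in wild type but 7, 2 and 4 in STAT3cKO. It reached the level of the low-count filter in 0 STAT3cKO hearts and so was tested through the wild-type group alone, and it supports nothing here. The genes that rose were Pttg1, which encodes securin (0.68 ± 0.10, adjusted p = 0.00067), and Cenpa, the histone variant of centromeres (0.51 ± 0.10, adjusted p = 0.0033). Both also passed with the offset. The checkpoint gene Mad2l1 was not called without the offset (0.49, edgeR adjusted p = 0.105) but was higher with it (0.76, adjusted p = 0.0266). Its offset value rests on a length of 7557 nt, which exceeds the listed span of the gene (chr6:66535221-66541107). At 54.8 and 23.1 CPM on average in wild type Pttg1 and Cenpa were far more abundant than most genes of the list. The list's summed level was therefore higher in STAT3cKO, at 249, 229 and 256 CPM against 226, 210 and 223 CPM, although most of its genes had values below 0.

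Of 38 further replication genes 35 were tested, of which 5 rose and 1 fell, with a median log2 fold change of 0.19 (0.17 with the length offset). That is 17.1% changed and 14.3% higher, against 25.8% and 13.2% of all genes, which is no more than the background. Gmnn, which encodes geminin, the inhibitor of origin relicensing, rose by 0.75 ± 0.13 (edgeR adjusted p = 0.00184), and so did Rfc2, of the clamp loader (0.56 ± 0.12, adjusted p = 0.00615), and Rpa2, of the protein that coats single-stranded DNA (0.56 ± 0.13, adjusted p = 0.00702). These passed with the offset and in each fit without 1 heart, although Rfc2 shares exon bases with Lat2. Also higher were Rfc4 (0.65), which did not pass with the offset (adjusted p = 0.109), and Cdc7 (0.86), a kinase that fires origins, which passed with it (0.0452) but only without STAT3cKO heart 6 among the fits without 1 heart. Dnmt1, the maintenance DNA methyltransferase, fell by 0.48 ± 0.11 (adjusted p = 0.00657; 0.119 with the offset). CHR letters were in 73.7% of the promoter windows of the further mitosis genes and 19.5% of those of the further replication genes, and E2F letters in 23.7 and 29.3%.

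Of 20 genes for E2F, the retinoblastoma family and the DREAM complex 19 were tested, of which 3 fell and 1 rose (median log2 fold change -0.21, and -0.09 with the length offset, where 1 fell and 0 rose). That is 21.1% changed and 15.8% lower, near the 25.8% and 12.6% of all genes. Foxm1, a transcription factor that drives mitosis genes, had 48, 30 and 34 counts in the wild-type hearts, then 15, 11 and 16 in the STAT3cKO hearts, at -1.23 ± 0.33 on the log2 scale (edgeR adjusted p = 0.0161), and -1.09 with the offset (adjusted p = 0.0342). It was not called without wild-type heart 1 (adjusted p = 0.0688). Tfdp2, a dimer partner of E2F (-0.52 ± 0.08, adjusted p = 0.00119), and Rb1 itself (-0.33, adjusted p = 0.0496) also fell, and Lin37, a MuvB subunit, rose (0.63, adjusted p = 0.0171). None of these 3 passed with the offset (adjusted p = 0.0638, 0.175 and 0.145). Rb1 passed only without wild-type heart 1 (0.0493) or STAT3cKO heart 6 (0.0135), and Lin37 not without wild-type heart 3 (0.0611) or STAT3cKO heart 6 (0.0526). Of 12 other genes, of kinases, phosphatases and their regulators and Myc, 1 fell and 0 rose by the edgeR test (3 and 2 at an unadjusted p under 0.05). That is 8.33% changed, below the 25.8% of all genes, and 38.6% of all genes changed at the unadjusted level. With the offset Cdk7 fell as well, at -0.37, and with DESeq2 Myc passed (adjusted p = 0.0351). Myc was at 3.41, 8.70 and 2.90 CPM in STAT3cKO, so its log2 fold change of 0.98 rested on heart 6, and without that heart it was 0.32 (edgeR adjusted p = 0.393). Skp2, at -1.05 by edgeR (adjusted p = 0.0602), was called lower with limma-voom (adjusted p = 0.0499) but not with DESeq2 (0.121). It reached the level of the low-count filter in 3 wild-type hearts but only 1 STAT3cKO heart. Skp2 thus entered the test mainly through the group where it was high, and its pass carries that limit. The gene that fell was Cdc25a, the phosphatase that activates Cdk2 and Cdk1, which averaged 6.44 ± 0.227 CPM in wild type, against 3.35 ± 0.700 CPM after the deletion (SD, n = 3 each; log2 fold change -0.94 ± 0.21, edgeR adjusted p = 0.00626; 0.00954 with the offset).

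Markers of the cell types that divide in the adult heart moved with genotype as well. Of 5 endothelial markers 4 fell, with a summed level of 949 to 1110 CPM in wild type, against 600 to 675 CPM after the deletion. Of 5 macrophage markers 4 fell (186 to 216 against 78.9 to 122 CPM) and of 5 smooth muscle and pericyte markers 3 fell (959 to 1130 against 611 to 708 CPM). These were 80, 80 and 60% of the endothelial, macrophage and smooth muscle lists, against 12.6% of all genes called lower. With the length offset these counts were 3, 4 and 2 (60, 80 and 40%), against 7.74% of all genes. Genes called higher made up 13.2% of all genes, and 10.8% with the offset. Fibroblast markers went both ways, with 1 of 5 higher and 1 lower, and summed to 838 to 1310 and 1370 to 1750 CPM. The fibroblast gene that rose was Dcn, at 752 CPM on average in wild type and 1300 CPM in STAT3cKO. The higher sum of this list rested on Dcn. Col1a1 fell, and Pdgfra, Tcf21 and Lum were not called (log2 fold change 0.04, 0.25 and 0.05). The 5 lymphocyte markers were near 0, with 0 to 21 counts each, and were not tested. Of 6 erythroid genes 5 were tested and 4 were higher by the edgeR test, though none with the length offset (0 of 5; the lowest adjusted p was that of Hba-a2, 0.051), and they summed to 90.7 to 159 and 335 to 685 CPM. The summed mitosis members were at 69.7% of the wild-type mean in STAT3cKO, beside 62.5% for the endothelial, 51% for the macrophage, 63.7% for the smooth muscle and 103% for the cardiomyocyte markers. The part of these cell types in the lower mitosis genes was not tested.

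**Figure D5:**
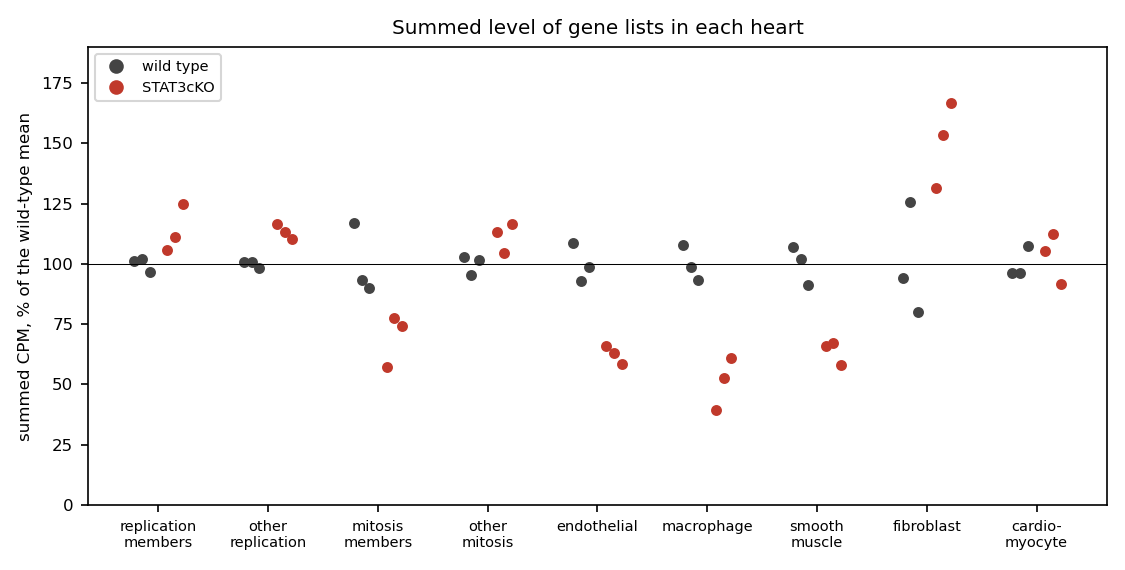
Summed CPM of gene lists in each heart, as a percentage of the wild-type mean (linear axis from 0), wild type in grey and STAT3cKO in red. The mitosis members lie at 57.3 to 77.4% in STAT3cKO hearts and the replication members at 105.6 to 125%, while endothelial, macrophage and smooth muscle markers lie between 39.5 and 67.2%.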

How the data were processed

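The labels' protocols state Trizol extraction, an integrity number above 8.0 and standard Illumina libraries. HISAT2 and GRCm38 are named in the submitters' processing notes. The read counter, its strand setting and the RNA selection are not stated in these sources. The authors deposited whole-number read counts per gene, not normalized. The members and gene lists were chosen with earlier results of these data known.

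Groups and replicate numbers come from the sample titles. The low-count filter was filterByExpr (edgeR 4.0.16, R 4.3.3; minimum count 10), leaving 14484 of 46095 genes, which were scaled by TMM and tested with the robust quasi-likelihood F test on genotype. Benjamini-Hochberg adjustment ran over these 14484 genes (threshold 0.05). Each SE was derived from the log2 fold change and its F statistic. The longest GENCODE M21 transcript of each symbol gave length and GC content, for 95.9% of genes tested. The length offset is a spline (5 degrees of freedom each) of log2 CPM deviation (prior count 1) on log2 length and GC, fitted per heart, and genes without a length received the median. CPM per kb is CPM over that length. Near-identical copies are annotated transcripts with at least 95% identity over 200 nt. Alternatives used DESeq2 1.42.0 and limma 3.58.1. Named were all members, with values per heart for those that passed with or without the offset and for Mki67, Top2a, Cdk1 and Pcna, and up to 4 genes of each further list with the smallest adjusted p. Anln, Smc2, Mad2l1, Rfc4, Cdc7, Cdk7, Myc, Skp2, Phlda3 and Btg2, and hearts' values of members that did not pass, were chosen after their values were seen. The functions were tested on simulated counts.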

Additional observations from a re-analysis of the deposited data

How the results depend on the processing

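No paired analysis was possible because the groups share only 1 replicate number in the labels. The difference in the ratio of mitosis to replication sums was -0.245, or -0.131 without Cenpf and Mki67 and -0.168 with the length and GC trend divided out. Settings, 11 in number, were changed in turn and each heart was left out in turn.

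Over all genes, 1918 were higher and 1820 lower. Library size alone gave 1109 higher (29% of calls in place of 51.3%) and moved the median over all genes from -0.002 to -0.113 (log2), the length and GC offset gave 1121 lower and the length offset without GC 1092 lower. Leaving out a heart gave 1237 to 1887 higher and 1198 to 1999 lower. Of the 36 members, 3 rose and 7 fell. Library size alone left 1 that rose and 0 replication genes among them. The stricter filter (1 CPM in 3 libraries, mean count 50) tested 19 members and left 4 that fell, 2 of them mitosis genes, since Cdc20, Kif11 and Cenpe were not tested. Both offsets also left 4 and 2, and 1 replication gene that rose. Leaving out a heart gave 1 to 3 members that rose, 3 to 6 that fell, 1 to 4 mitosis genes that fell and 0 to 2 replication genes that rose. Of the 116 further cell cycle genes tested 8 rose (6.9%) and 10 fell (8.62%), against 13.2% and 12.6% of all genes. With the stricter filter 6 fell. With either offset 6 fell as well (5.17% with the length and GC offset, against 7.74% of all genes). Without a heart 6 to 10 rose and 7 to 11 fell.

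Direction changed in genes whose log2 fold change was near 0 or whose spread was wide, none of them called. With library size alone Mcm3 was at -0.0128, Rrm2 at -0.0893 and Ccnb2 at -0.0785. With the length and GC offset Mcm6 was at 0.105, Rrm2 at -0.0685, Ccnb2 at -0.117, Cenpf at 0.0643 and Cdkn1b at 0.114, and without GC at 0.101, -0.067, -0.129, 0.0732 and 0.122. Upper-quartile factors gave 0.00652 for Mcm6 and 0.00676 for Cdkn1b, the stricter filter 0.0022 and 0.00337, and no low-count filter -0.00762 for Rrm2. Cdkn1b was at 8.68e-05 with DESeq2 size factors, 0.00024 with the DESeq2 Wald test, 0.00865 with limma-voom and 0.000817 without mitochondrial and haemoglobin genes. Without a heart the values ran from -0.0757 to 0.217 for Mcm3, -0.0049 to 0.225 for Mcm5, -0.18 to 0.122 for Mcm6, -0.038 to 0.293 for Rrm1, -0.134 to 0.123 for Rrm2, -0.245 to 0.0545 for Ccna2, -0.323 to 0.412 for Ccnb2, -0.271 to 0.0163 for Tpx2, -0.754 to 0.0121 for Cenpf and -0.085 to 0.108 for Cdkn1b. Of the 18 mitosis genes 15 had under 60 counts in every heart, which limits the precision of their values.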
